A study of Mus musculus with 8 samples.

Results

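The 10 genes described here are Trp53, which encodes the transcription factor p53, and 9 genes that p53 is known to switch on: Mdm2, Cdkn1a, Ccng1, Bax, Aen, Perp, Trp53inp1, Phlda3 and Eda2r. They were taken by symbol from a list that was chosen with earlier results of these data known. All 10 of 10 were found among the 55421 gene identifiers of the deposited expression table, and all 10 were abundant enough to be tested. RNA with poly-A tails was sequenced from mouse embryos of stage E9.25, which had 9 to 11 somites. The mutant embryos were homozygous for a Gcnf mutant allele (Gcnf-/-), and the wild-type embryos were labelled wt. Gcnf (germ cell nuclear factor) is a DNA-binding repressor of the nuclear receptor family, and its gene symbol is Nr6a1. Each embryo was divided into a posterior piece, from pharyngeal arch 2 backwards, and an anterior piece, from pharyngeal arch 1 forwards. The 8 libraries formed 4 groups of 2: mutant posterior (libraries 159 and 163), wild-type posterior (153 and 156), mutant anterior (159 and 163) and wild-type anterior (153 and 156). Pairs of values below are in that library order. The sources used here name neither the strain nor the part of the gene that the allele alters. The labels do not state whether libraries of 1 group were separate embryos, and p-values measure the spread between these libraries.

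p53 is made in most embryonic cells and is held at a low protein level by Mdm2, a ubiquitin ligase that marks it for degradation. DNA damage and faults in ribosome assembly release p53 from Mdm2, and p53 then raises genes that stop the cell cycle, repair DNA or kill the cell. Because this control acts mainly on the protein, the level of Trp53 RNA does not measure p53 activity. In mouse embryos the neural tube and the cranial neural crest are known as tissues that respond readily to p53.

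p53 binds DNA as a tetramer at pairs of a decamer made of 3 purines, then C, A or T, A or T, G, and then 3 pyrimidines. The pattern reads the same on both strands. It was searched for in the RefSeq promoter windows (GRCm38.p6), which run from 250 bases before to 50 bases after a start. Windows were found for 8 of the 10 members, 10 windows in all, and none was found for Perp or Trp53inp1. An exact decamer stood in the windows of 6 of the 8 genes (Trp53, Mdm2, Cdkn1a, Ccng1, Bax and Aen), or 75.0%, against 28.0% of 25 other p53 targets with a window and 9.55% of all 27025 genes. By window the shares were 70.0%, 17.9% and 8.36% (of all 32851 windows), and the first share counts 1 decamer of Aen in both of its windows, which overlap. A pair of decamers with a spacer of 0 to 13 bases and at most 1 mismatch in all, with the central C and G kept, stood in the windows of Cdkn1a and Ccng1. Such a pair was present in 0.627% of all windows. A match is a description of the sequence and not a measured binding site, and the p53 elements known in the first intron of Mdm2 lie outside its window.

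The 250 bases before the start are printed for the 2 members with a pair and for Phlda3. Phlda3 had no decamer in its window, and its RNA differed between the genotypes in both regions. Capitals mark the paired decamers. The Cdkn1a stretch is the upstream of its 2 windows (GRCm38.p6, chr17:29090729-29090978, plus strand), and it holds 2 pairs that share a decamer. One ran from 51 to 32 bases before the start with 1 mismatch and no spacer, and the other from 73 to 42 bases before the start with 0 mismatches and a spacer of 12 bases. In the Ccng1 stretch (chr11:40755287-40755536, minus strand) the pair ran from 195 to 176 bases before the start with 1 mismatch and no spacer. The Phlda3 stretch (chr1:135765835-135766084, plus strand) has no capitals. Its RefSeq start is base 135766085, whereas the GENCODE M21 annotation begins the gene at base 135766119. Its whole window ends in gaacatgt, which matches the start of the pattern and is cut off by the window edge. A decamer across that edge or outside the window was therefore not searched for.
Cdkn1a: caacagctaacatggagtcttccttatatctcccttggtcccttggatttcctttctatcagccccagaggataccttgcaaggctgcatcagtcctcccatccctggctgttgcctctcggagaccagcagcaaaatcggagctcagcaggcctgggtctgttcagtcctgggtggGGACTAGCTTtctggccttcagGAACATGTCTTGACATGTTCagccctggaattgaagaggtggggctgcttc
Ccng1: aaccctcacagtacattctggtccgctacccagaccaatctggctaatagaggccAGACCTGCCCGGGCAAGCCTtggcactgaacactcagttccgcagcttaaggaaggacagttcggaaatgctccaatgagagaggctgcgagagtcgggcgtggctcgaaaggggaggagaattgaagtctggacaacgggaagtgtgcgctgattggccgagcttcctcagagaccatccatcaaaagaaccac
Phlda3: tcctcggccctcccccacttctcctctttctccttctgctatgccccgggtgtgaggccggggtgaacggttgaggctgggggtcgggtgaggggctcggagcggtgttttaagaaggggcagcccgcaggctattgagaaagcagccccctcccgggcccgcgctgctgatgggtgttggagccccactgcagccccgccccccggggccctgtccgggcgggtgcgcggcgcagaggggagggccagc
The second Cdkn1a window, at the downstream start (chr17:29093519-29093818), held no decamer. In the first Aen window (chr7:78895677-78895976, plus strand) the decamer GGGCTTGTCC began at base 11 counted from the start.

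Expression was given as TPM, in which reads are corrected for gene length and each library sums to 1000000. The values corresponded to between 27064113 and 52957993 reads in genes per library, and a gene of 1 kb with 3 reads had 0.2 to 0.403 TPM, which covers counting error only. Nr6a1 was present in all groups, at 158 and 116 TPM in mutant posterior, 157 and 165 in wild-type posterior, 240 and 202 in mutant anterior and 194 and 205 TPM in wild-type anterior libraries. A value for the whole gene does not check the genotype labels, since it cannot separate mutant from normal transcript. The summed TPM of 4 posterior markers (Hoxb9, Hoxc8, T, Cdx2) was 386 to 421 in mutant and 588 to 782 in wild-type posterior libraries. It was 7.81 to 9.09 in mutant and 6.98 to 7.62 in wild-type anterior libraries. The posterior pieces thus carried the markers that their labels name, but at unlike levels in the 2 genotypes. In posterior pieces limma called 2 of the 4 markers lower and 1 higher in the mutant. Cell type markers moved with genotype. Of 5 early neuron markers, 5 rose in anterior and 4 in posterior mutant pieces, while Stmn2 had 8.06 and 5.82 TPM in mutant against 8.78 and 9.37 TPM in wild-type posterior pieces (-0.36, limma adjusted p = 0.155). Their summed TPM, most of it from Tubb3, was 74.2 to 83.6 in mutant and 42.6 to 42.9 in wild-type posterior libraries, and 397 to 558 in mutant and 131 to 138 in wild-type anterior libraries. Summed TPM of 5 primitive red blood cell markers was 22000 to 43800 in mutant and 4200 to 9840 in wild-type libraries of either region, and 5 of them rose in anterior and 4 in posterior pieces. Summed TPM of 5 visceral endoderm markers was 211 to 988 in mutant and 1900 to 2300 in wild-type posterior libraries, and 11.2 to 17.6 in mutant and 16.4 to 131 in wild-type anterior libraries. In posterior pieces all 5 were lower in both mutant libraries, 0 passed in limma, 4 had an unadjusted p below 0.05, and voom called 4. Of 5 endothelial markers only Pecam1 passed, higher in mutant anterior (0.80, limma adjusted p = 0.00446) and posterior pieces (1.11, 0.00203). Of 2 macrophage and megakaryocyte markers tested only Pf4 passed, higher in mutant anterior (2.57, limma adjusted p = 0.00447) and posterior pieces (3.63, 0.00185). Pf4 had at most 0.559 TPM in wild-type libraries. Mutant libraries 159 carried Xist (30.9 TPM in posterior and 25.3 TPM in anterior pieces), and mutant libraries 163 and all wild-type libraries carried the 4 Y-linked genes. Summed TPM of those 4 genes was 0.306 and 0.36 in mutant libraries 159 and at least 70.7 in the others, so the 2 libraries of each mutant group came from different embryos, while the wild-type libraries cannot be told apart by sex. Neither sex nor these cell types are balanced between the genotypes, and in bulk tissue fewer cells of a type cannot be told apart from less RNA per cell.

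**Figure D1:**
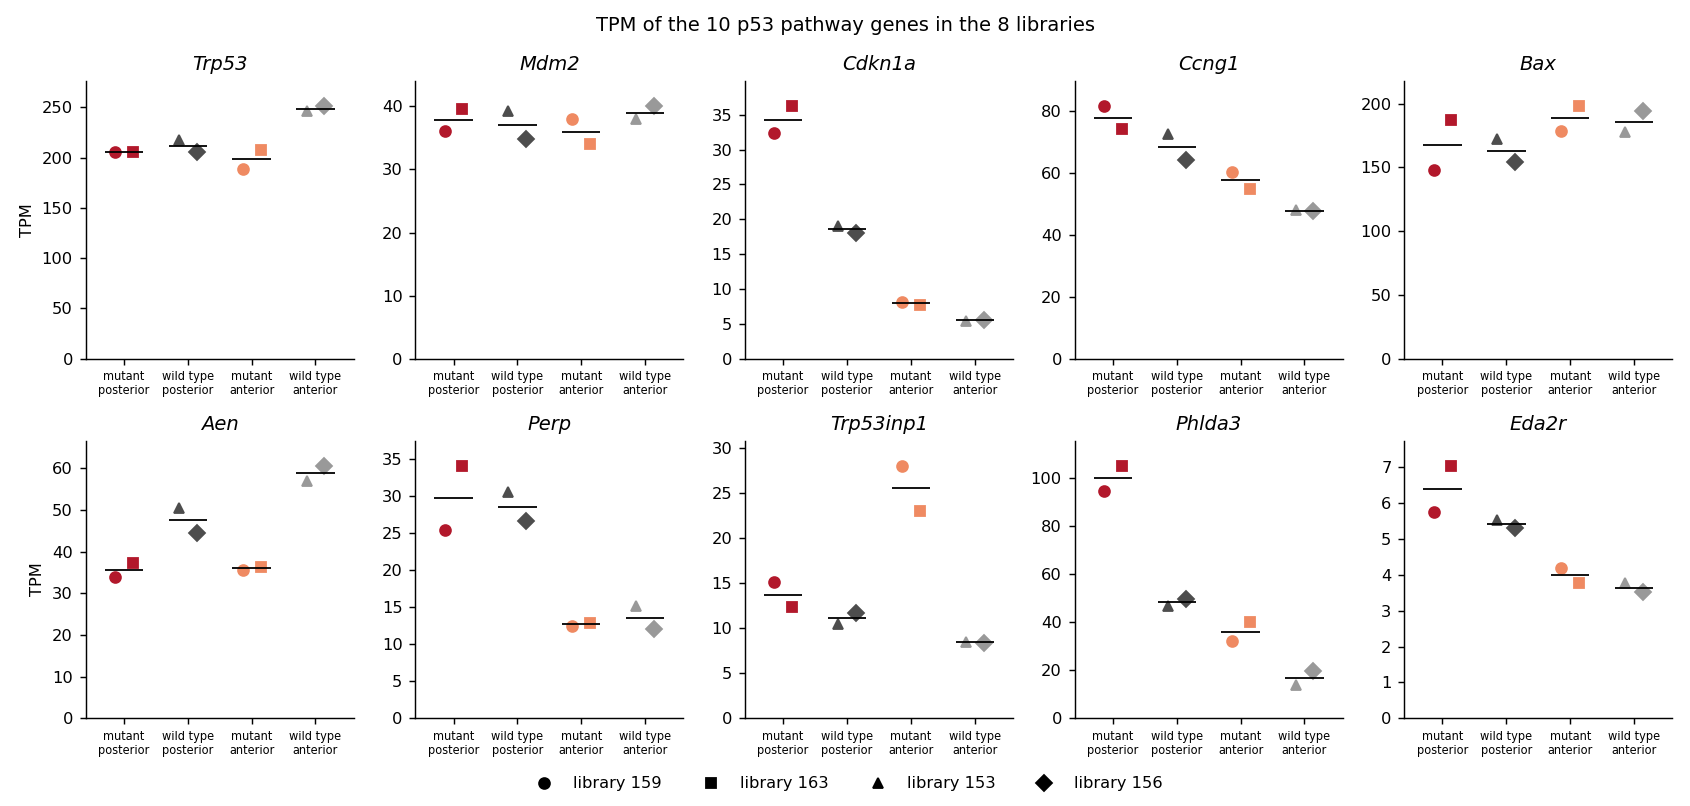
TPM (y axis, from 0, a scale of its own in each panel) of the 10 p53 pathway genes in each of the 8 libraries, by group on the x axis; each symbol is 1 library and each line the mean of the 2. Cdkn1a, Phlda3, Perp, Ccng1 and Eda2r sit higher in posterior than in anterior pieces in both genotypes, and Trp53inp1 is at 28.0 and 23.0 TPM in mutant anterior pieces, against 8.51 and 8.35 TPM in wild-type anterior pieces.

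By mean TPM over the 8 libraries the members spanned from Trp53 (216) and Bax (176), through Ccng1 (62.8), Phlda3 (50.2), Aen (44.5), Mdm2 (37.5), Perp (21.2), Cdkn1a (16.6) and Trp53inp1 (14.7), to Eda2r (4.86). The smallest number of reads behind any member's value was 180, for Cdkn1a in a wild-type anterior library, and the largest was 12500, for Trp53 in a mutant posterior library. Differences between groups are given on the scale of log2(TPM + 1), with the standard error from limma fitted over all 16699 genes tested and the p-value adjusted by Benjamini-Hochberg over the same genes. This scale understates the change of low genes, Eda2r above all among the members.

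The genotype comparison asked whether mutant pieces differ from wild-type pieces of the same region. In anterior pieces 5 of the 10 members passed the threshold of 0.05: Trp53inp1, Phlda3 and Cdkn1a rose, and Aen and Trp53 fell. Over all genes tested, 23.6% passed, 13.3% higher and 10.2% lower. In posterior pieces 3 of the 10 passed: Cdkn1a and Phlda3 rose and Aen fell, against 11.5% of all genes, 8.56% higher and 2.93% lower. These shares rest on 10 genes and are given as a description. The libraries of the 2 genotypes did not overlap for 8 of the 10 members in anterior pieces (67.3% of all genes) and for 7 of the 10 in posterior pieces (53.2%), which is not far from the shares of all genes. The median difference of the 10 members was 0.06 in anterior pieces (all genes 0.02) and 0.12 in posterior pieces (all genes 0.05). The members had no common direction: 6 of the 10 differences were positive in anterior pieces and 8 of the 10 in posterior pieces, where those of Mdm2, Bax and Perp turned negative under median-of-ratios scaling.

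**Figure D2:**
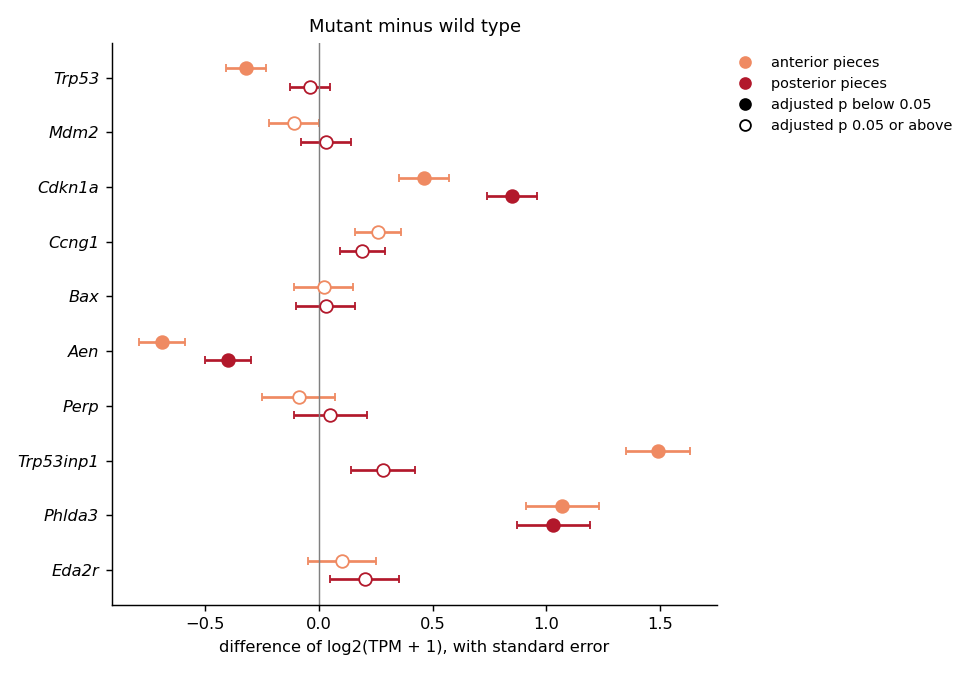
Mutant minus wild type difference of log2(TPM + 1) on the x axis for each member, in anterior and in posterior pieces; bars are standard errors from limma and filled points have an adjusted p below 0.05. Phlda3 and Cdkn1a lie right of 0 and Aen left of 0 in both regions, and the Trp53inp1 points of the 2 regions lie 1.21 apart.

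Trp53 itself (chr11:69580359-69591873, plus strand, mm10 as for all members) had 189 and 208 TPM in mutant anterior pieces, against 246 and 251 TPM in wild-type anterior pieces. Both mutant libraries were below both wild-type libraries, and the level fell to 0.799 of that in wild type (log2 difference -0.32 ± 0.088, limma, Benjamini-Hochberg adjusted p = 0.0302). The call ended without any one of the 4 anterior libraries (adjusted p = 0.146 without mutant 159, 0.0512 without mutant 163, 0.155 without wild-type 153 and 0.186 without wild-type 156), as it did with no filter on low values (0.0505), and under quantile normalization the difference was -0.17 (adjusted p = 0.115). In posterior pieces Trp53 had 206 and 206 TPM in the mutant and 217 and 206 TPM in wild type, a difference of -0.04 ± 0.088 (adjusted p = 0.813). The 3 groups other than wild-type anterior therefore lay close to each other, from 189 to 217 TPM.

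Mdm2 (chr10:117688875-117710758, minus strand), which is both the main brake on p53 and one of its targets, did not pass in any comparison. It had 38.0 and 34.0 TPM in mutant anterior pieces against 38.0 and 40.0 TPM in wild-type anterior pieces (-0.11 ± 0.11, limma adjusted p = 0.483). In posterior pieces it had 36.1 and 39.5 TPM in the mutant against 39.3 and 34.8 TPM in wild type (0.03 ± 0.11, adjusted p = 0.889). Across the 8 libraries Mdm2 thus stayed between 34.0 and 40.0 TPM, the narrowest relative range of the 10.

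Among the cell cycle members, Cdkn1a (chr17:29090976-29100727, plus strand) encodes p21, the inhibitor of cyclin-dependent kinases through which p53 halts the cycle. In posterior pieces Cdkn1a had 32.4 and 36.2 TPM in the mutant, against 19.0 and 18.1 TPM in wild type. It rose to 1.85 times the wild-type level there (0.85 ± 0.11, limma, Benjamini-Hochberg adjusted p = 0.00259), and this call held without any single library. It ended without both libraries numbered 153, where the difference was 0.88. Anterior levels were lower, at 8.1 and 7.76 TPM in the mutant and 5.4 and 5.61 TPM in wild type, and here too the genotypes did not overlap. It rose to 1.44 times the wild-type level (0.46 ± 0.11, adjusted p = 0.0192). That anterior call ended without any one of the 4 anterior libraries (adjusted p = 0.0779 without mutant 159, 0.0626 without mutant 163, 0.129 without wild-type 153 and 0.0928 without wild-type 156), as it did with only the 2 groups fitted (0.0514), and under quantile normalization the difference was 0.24 (adjusted p = 0.138). Of the exon bases of Cdkn1a, 7.68% overlapped a gene on the opposite strand, which had at most 0.204 TPM.

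Ccng1 (chr11:40748552-40755311, minus strand) encodes cyclin G1, a p53 target that works with a phosphatase on Mdm2. It had 60.3 and 54.8 TPM in mutant anterior pieces against 48.0 and 47.6 TPM in wild-type anterior pieces, a difference of 0.26 ± 0.10 that missed the threshold (limma adjusted p = 0.102). With voom on the reads recovered from TPM, an alternative chosen after seeing the data, the difference was 0.33 and passed (adjusted p = 0.0331). In posterior pieces it had 81.4 and 74.1 TPM in the mutant and 72.4 and 64.0 TPM in wild type (0.19 ± 0.10, adjusted p = 0.275). Its mutant libraries were above its wild-type libraries in both regions.

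The other 6 members act in cell death and survival, and 3 of them passed in anterior pieces. Trp53inp1 (chr4:11156431-11174379, plus strand) encodes a nuclear protein that helps kinases to phosphorylate p53 and takes part in autophagy. It had 28.0 and 23.0 TPM in mutant anterior pieces, against 8.51 and 8.35 TPM in wild-type anterior pieces. At 3.03 times the wild-type level this was the largest genotype difference among the 10 members in either region (1.49 ± 0.14, limma, Benjamini-Hochberg adjusted p = 0.000355), and it held without any single library. In posterior pieces the levels were 15.1 and 12.3 TPM in the mutant and 10.5 and 11.7 TPM in wild type (0.28 ± 0.14, adjusted p = 0.244).

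Phlda3 (chr1:135766119-135769136, plus strand) encodes a small membrane-binding protein that competes with the survival kinase Akt. In posterior pieces Phlda3 had 94.5 and 105 TPM in the mutant, against 46.7 and 49.7 TPM in wild type. In anterior pieces it had 32.1 and 40.0 TPM in the mutant, against 13.9 and 19.5 TPM in wild type. It rose by about the same factor in both regions, to 2.07 times in posterior pieces (1.03 ± 0.16, limma, Benjamini-Hochberg adjusted p = 0.00631) and to 2.16 times in anterior pieces (1.07 ± 0.16, adjusted p = 0.0028). The anterior call held without any single library, and the posterior call ended without wild-type posterior library 153 or 156. Without both libraries numbered 153 both calls ended, at differences of 0.84 in anterior and 0.99 in posterior pieces.

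Aen (chr7:78895854-78911209, plus strand), the apoptosis-enhancing nuclease, went the other way. It had 35.6 and 36.4 TPM in mutant anterior pieces, against 57.0 and 60.6 TPM in wild-type anterior pieces, and fell to 0.612 of the wild-type level (-0.69 ± 0.10, limma, Benjamini-Hochberg adjusted p = 0.00252). In posterior pieces it had 34.0 and 37.3 TPM in the mutant, against 50.6 and 44.4 TPM in wild type (-0.40 ± 0.10, adjusted p = 0.041). The 4 mutant libraries thus had nearly the same Aen level, 34.0 to 37.3 TPM, below all 4 wild-type libraries. The anterior call held without any single library, whereas the posterior call ended without each of the 8 libraries in turn, with adjusted p between 0.0509 (without mutant posterior 163) and 0.198 (without wild-type posterior 153), and also with no filter on low values (0.0785) or with only the 2 groups fitted (0.14).

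Bax, Perp and Eda2r did not pass between genotypes in either region. Bax (chr7:45461697-45466898, minus strand), whose protein permeabilizes mitochondria in apoptosis, had 179 and 198 TPM in mutant and 178 and 194 TPM in wild-type anterior pieces (0.02 ± 0.13, limma adjusted p = 0.931). In posterior pieces it had 148 and 187 TPM in the mutant and 172 and 154 TPM in wild type (0.03 ± 0.13, adjusted p = 0.907), so the genotypes overlapped in both regions. Perp (chr10:18845020-18857073, plus strand), a membrane protein of desmosomes that also acts in p53-driven death, had 12.5 and 12.9 TPM in mutant and 15.2 and 12.0 TPM in wild-type anterior pieces (-0.09 ± 0.16, adjusted p = 0.744). It had 25.5 and 34.1 TPM in mutant and 30.6 and 26.6 TPM in wild-type posterior pieces (0.05 ± 0.16, adjusted p = 0.886). Eda2r (chrX:97333840-97377216, minus strand) encodes a receptor of the tumour necrosis factor family that binds ectodysplasin A2. Its levels were 4.2 and 3.77 TPM in mutant and 3.76 and 3.51 TPM in wild-type anterior pieces (0.10 ± 0.15, adjusted p = 0.654), and 5.75 and 7.03 TPM in mutant and 5.52 and 5.3 TPM in wild-type posterior pieces (0.20 ± 0.15, adjusted p = 0.416). The gene lies on the X chromosome, and the mutant libraries with Xist (159) were the higher of their group in anterior pieces and the lower in posterior pieces. The red blood cell and early neuron markers were also higher in the mutant, all but Stmn2 in posterior pieces, and the visceral endoderm markers were lower in posterior pieces. Pecam1 and Pf4 were higher in the mutant in both regions, and the summed posterior markers were lower in mutant posterior pieces. The part of all these markers in the differences of these 10 genes was not tested.

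A further test asked whether the genotype effect differed between anterior and posterior pieces. Of the 10 members 1 passed, Trp53inp1, against 1.01% of all genes tested (0.413% with the larger effect in anterior pieces and 0.599% with the smaller). Its effect was larger in anterior than in posterior pieces by 1.21 ± 0.20 (limma, Benjamini-Hochberg adjusted p = 0.0326). The direction was the same in every setting tried, between 1.07 and 1.35 when 1 library was left out. The call ended without mutant anterior 159 (adjusted p = 0.0965), mutant anterior 163 (0.0502), mutant posterior 163 (0.0513), wild-type anterior 153 (0.102), wild-type anterior 156 (0.103), wild-type posterior 153 (0.132) or wild-type posterior 156 (0.179), and remained only without mutant posterior 159. It also ended with no filter on low values (adjusted p = 0.117), with median-of-ratios scaling (0.0639) and with quantile normalization (0.0728). The early neuron markers had their largest rise in the same group, and 2 of the 5 passed this same test in the same direction; their part in the Trp53inp1 result was not tested. For Cdkn1a the effect was smaller in anterior than in posterior pieces by 0.39 on this scale (difference -0.39 ± 0.16, adjusted p = 0.349). Its unadjusted p of 0.035 is shared by many genes, since 12.6% of all genes had one below 0.05, so its 1.44-fold and 1.85-fold rises were not shown to differ. For Trp53 the difference was -0.28 ± 0.13 (adjusted p = 0.399), for Aen -0.29 ± 0.15 (adjusted p = 0.462), and for Phlda3 it was 0.04 ± 0.23 (adjusted p = 0.967).

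The comparison of regions asked whether posterior pieces differ from anterior pieces of the same genotype. In the mutant, 6 of the 10 members passed between posterior and anterior pieces, against 16.1% of all genes: Cdkn1a, Phlda3, Perp, Eda2r and Ccng1 were higher in posterior pieces (8.01% of all genes were) and Trp53inp1 was lower (8.1% were). In wild type 4 of the 10 passed, against 14.5% of all genes: Cdkn1a, Phlda3, Perp and Ccng1, all higher in posterior pieces (7.86% were, and 6.65% were lower). The libraries of posterior and anterior pieces did not overlap for 6 of the 10 members in the mutant (52.1% of all genes) and for 9 of the 10 in wild type (63.1%). Each region comparison shares its libraries with a genotype comparison. The median posterior minus anterior difference of the members was 0.25 in the mutant (all genes -0.04) and 0.41 in wild type (all genes -0.1).

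Cdkn1a had the largest region difference of the 10. Its posterior level was 4.33 times the anterior level in the mutant (1.98 ± 0.11, limma, Benjamini-Hochberg adjusted p = 6.73e-06) and 3.37 times in wild type (1.59 ± 0.11, adjusted p = 3.05e-05). Phlda3 followed, at 2.77 times in the mutant (1.45 ± 0.16, adjusted p = 0.000479) and 2.89 times in wild type (1.49 ± 0.16, adjusted p = 0.000465). Perp, which did not differ by genotype, was 2.35 times as high in posterior as in anterior pieces of the mutant (1.16 ± 0.16, adjusted p = 0.00171) and 2.1 times as high in wild type (1.02 ± 0.16, adjusted p = 0.00357). Without both libraries numbered 153 the wild-type Perp call ended, at a difference of 1.09. Cdkn1a, Phlda3 and Perp kept their calls in both genotypes without any single library. As a result, the lowest Cdkn1a, Phlda3 and Perp levels of the posterior groups, in either genotype, lay above the highest levels of the anterior groups.

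Ccng1 and Eda2r had smaller region differences. Ccng1 was higher in posterior pieces by 0.43 ± 0.10 in the mutant (limma adjusted p = 0.0228) and by 0.50 ± 0.10 in wild type (adjusted p = 0.0124). Its mutant call ended with only the 2 groups fitted (adjusted p = 0.0843) and without mutant anterior 163 (adjusted p = 0.133), mutant posterior 159 (0.0811), wild-type anterior 153 (0.0504) or wild-type anterior 156 (0.0507), and its wild-type call without wild-type anterior 153 (0.0785), wild-type anterior 156 (0.0978) or wild-type posterior 153 (0.0791). For Eda2r the difference was 0.56 ± 0.15 in the mutant (adjusted p = 0.0306) and 0.47 ± 0.15 in wild type (adjusted p = 0.0662). The mutant call of Eda2r ended without each of 7 libraries in turn, all but mutant posterior 159, with adjusted p between 0.0534 (without wild-type posterior 156) and 0.178 (without mutant posterior 163), and also with no filter on low values (0.0745), with only the 2 groups fitted (0.116) and with a fixed replicate block (0.0523).

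Trp53inp1 was the member whose region difference was called as unlike in the 2 genotypes. This is the same interaction as the difference of genotype effects above, with the limits given there. In the mutant its posterior level was 0.536 of the anterior level (-0.85 ± 0.14, limma, Benjamini-Hochberg adjusted p = 0.00389), a call that held without any single library. In wild type the posterior level was 1.31 times the anterior level (0.35 ± 0.14, adjusted p = 0.139). Trp53, Mdm2, Bax and Aen did not pass between regions in either genotype, with differences from -0.18 to 0.07 in the mutant and from -0.30 to -0.07 in wild type. The posterior pieces also hold visceral endoderm RNA: the 5 visceral endoderm markers passed as higher in posterior pieces in both genotypes, with the sums given above. The sum of 5 heart muscle markers was 267 to 2140 TPM in mutant posterior, 95.0 to 275 in mutant anterior, 288 to 864 in wild-type posterior and 19.7 to 106 TPM in wild-type anterior libraries. Between regions limma called 0 of these 5 in the mutant and 3 as higher in posterior pieces of wild type, and voom called 0 in either genotype. Of 5 early neuron markers, 5 passed as lower in posterior pieces in the mutant. In wild type 2 of the 5 did, and 1 of the 5 differences was positive. Of 5 endothelial markers, 3 passed as higher in posterior pieces in the mutant and 1 in wild type, and 0 as lower. The part of all these markers in the region differences was not tested.

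**Figure D3:**
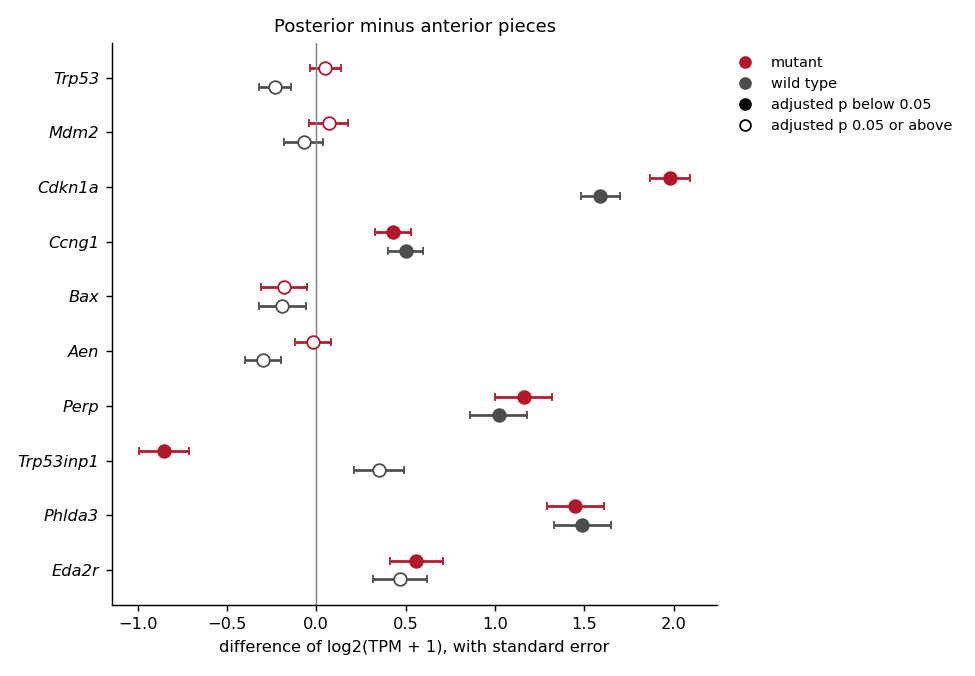
Posterior minus anterior difference of log2(TPM + 1) on the x axis for each member, in the mutant and in wild type; bars are standard errors from limma and filled points have an adjusted p below 0.05. Cdkn1a, Phlda3 and Perp lie right of 1 in both genotypes, and Trp53inp1 lies at -0.85 in the mutant and at 0.35 in wild type.

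A list of 32 further p53 targets, of which 30 were tested (Gdf15 and Spata18 were too low), gives the setting of the members. In anterior pieces 12 of the 30 rose in the mutant and 3 fell (all genes 13.3% and 10.2%), and the median difference was 0.25 (all genes 0.02). In posterior pieces 6 of the 30 rose and 1 fell (all genes 8.56% and 2.93%), with a median of 0.23 (all genes 0.05). In limma's test of the difference between regions 0 of the 30 passed, 4 had an unadjusted p below 0.05, and voom called 0. The count of 15 in anterior pieces was 10 without mutant anterior 159 or 163, 6 without wild-type anterior 153 and 8 without wild-type anterior 156, and the count of 7 in posterior pieces was 4 without mutant posterior 163, 3 without wild-type posterior 153 and 1 without wild-type posterior 156.

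Plk3, a stress-responsive polo-like kinase, had the largest difference on that list in both regions. It had 27.1 and 35.7 TPM in mutant against 5.18 and 6.89 TPM in wild-type anterior pieces (2.20 ± 0.17, limma, Benjamini-Hochberg adjusted p = 0.000119), and 22.1 and 21.9 TPM in mutant against 4.46 and 4.86 TPM in wild-type posterior pieces (2.02 ± 0.17, adjusted p = 0.000373). Its relative Plk2, the carbonyl reductase gene Dcxr and the lipase gene Abhd4 also rose in both regions. In anterior pieces the differences were 0.76 for Plk2, 0.97 for Dcxr and 0.63 for Abhd4, each called without any single library, and in posterior pieces 0.58, 0.64 and 0.49 for the same genes. Without both libraries numbered 153 the anterior calls of Dcxr (difference 0.852) and Abhd4 (0.665) ended. The posterior calls of Plk2 (0.659), Dcxr (0.704) and Abhd4 (0.548) ended there too. The posterior call of Plk2 ended without wild-type posterior 156 (adjusted p = 0.0591), that of Dcxr without mutant posterior 163 (0.0618) or wild-type posterior 153 (0.0839) or 156 (0.0974), and that of Abhd4 without mutant posterior 159 (0.0739) or wild-type posterior 153 (0.0848) or 156 (0.104). With only the 2 groups fitted the posterior calls of these 3 genes ended (0.0516 to 0.0867), and with no filter on low values those of Dcxr (0.0536) and Abhd4 (0.0533).

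Other targets passed in 1 region, or fell. Pmaip1, which encodes the death protein Noxa, had 21.2 and 19.2 TPM in mutant against 8.82 and 8.71 TPM in wild-type anterior pieces (1.12 ± 0.17, limma adjusted p = 0.00296), and the antiproliferative gene Btg2 rose by 0.92 ± 0.13 there (adjusted p = 0.00226). In posterior pieces the same differences were 0.46 for Pmaip1 (adjusted p = 0.123) and 0.24 for Btg2 (adjusted p = 0.289). The death receptor gene Fas had 3.16 and 5.0 TPM in mutant against 1.37 and 1.0 TPM in wild-type posterior pieces (1.20 ± 0.23, adjusted p = 0.014), and at most 0.244 TPM in anterior libraries. Its call ended with a pseudocount of 0.1 (adjusted p = 0.0661) and without mutant posterior 163 (0.0641) or wild-type posterior 153 (0.0757) or 156 (0.0906). Tigar, a regulator of sugar metabolism, fell by 0.66 ± 0.12 in anterior pieces (adjusted p = 0.00651) and by 0.53 ± 0.12 in posterior pieces (adjusted p = 0.0285). The posterior call of Tigar ended without mutant posterior 159 (0.0949) or wild-type posterior 153 (0.164) or 156 (0.0811), with no filter on low values (0.0731) and with only the 2 groups fitted (0.0928). Like the members, this list held genes that rose beside genes that fell. The cell type markers that moved with genotype in these groups, Stmn2 against the other neuron markers, are given above, and their part in these differences was not tested.

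**Figure D4:**
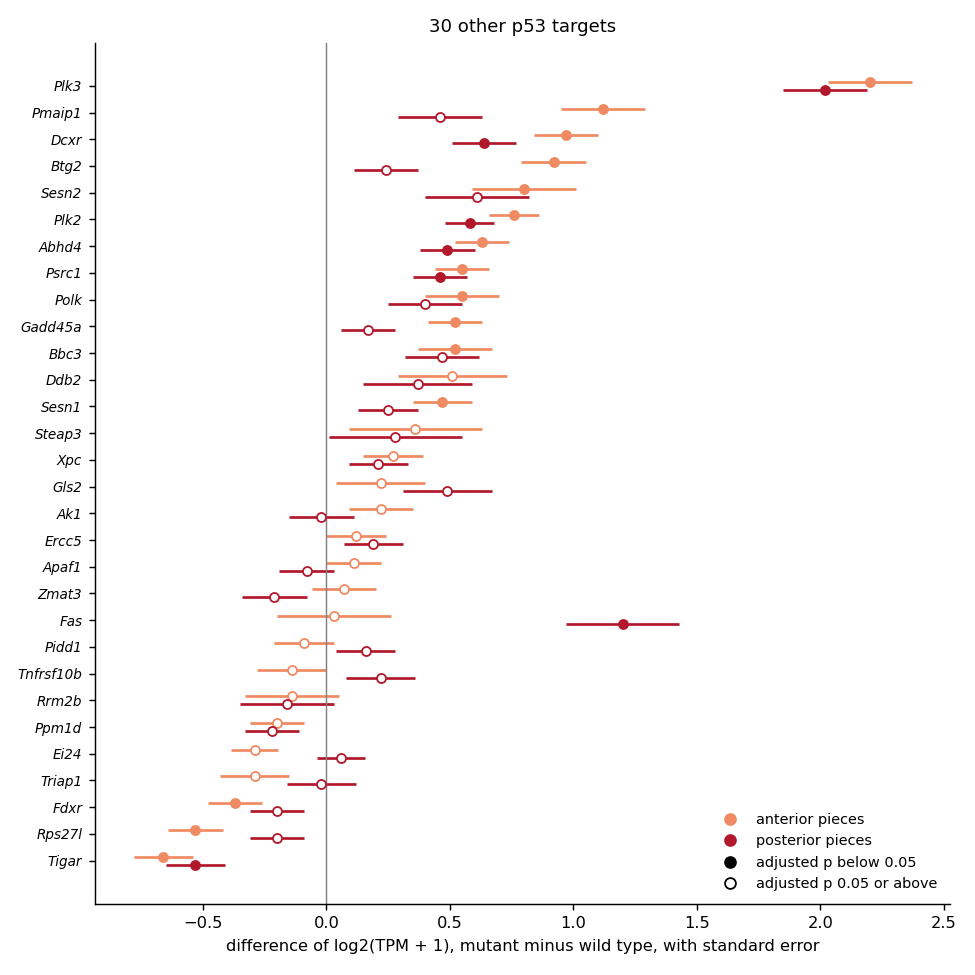
Mutant minus wild type difference of log2(TPM + 1) on the x axis for the 30 other p53 targets tested, in anterior and in posterior pieces, sorted by the anterior difference; bars are standard errors from limma and filled points have an adjusted p below 0.05. Plk3 stands at 2.20 and 2.02, and Tigar lies left of 0 in both regions.

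Of 21 tested genes that regulate p53 or belong to its family, 1 fell and 0 rose in anterior pieces (all genes 10.2% and 13.3%), and 1 fell and 0 rose in posterior pieces (all genes 2.93% and 8.56%). At an unadjusted p below 0.05, 4 were lower and 0 higher in anterior pieces (all genes 17% and 20.3%), and 3 were lower and 3 higher in posterior pieces (all genes 9.39% and 18.5%). Usp7, the deubiquitinase of Mdm2 and p53, had 117 and 112 TPM in mutant against 156 and 153 TPM in wild-type anterior pieces (-0.44 ± 0.11, limma adjusted p = 0.0184), a call that ended without any one of these 4 libraries (adjusted p 0.0564 to 0.119). Chek2, a kinase of the DNA damage response, had 24.5 and 26.1 TPM in mutant against 37.4 and 31.7 TPM in wild-type posterior pieces (-0.43 ± 0.12, adjusted p = 0.0499), and this call ended without each of the 8 libraries in turn (adjusted p 0.0572 to 0.242), and with a pseudocount of 0.1 (0.0524) or 0.5 (0.0506), no filter on low values (0.107) or only the 2 groups fitted (0.133). Mdm4, the partner of Mdm2, did not pass in either region. The largest anterior differences that did not pass were those of Cdkn2a, whose Arf product holds back Mdm2, at -0.66 (adjusted p = 0.223), Rpl11 at -0.54 (0.0599) and Rpl5 at -0.49 (0.114). Cdkn2a was low, with 0.257 and 0.0956 TPM in mutant against 0.819 and 0.89 TPM in wild-type anterior pieces. Rpl5 and Rpl11, ribosomal proteins that bind Mdm2, have many near-identical gene copies, and their TPM (2.85 to 19.3) is uncertain for that reason. Trp73, a relative of Trp53, was too low to be tested, with 0.363 and 1.38 TPM in mutant against 0.0385 and 0.0566 TPM in wild-type anterior pieces.

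Cell cycle genes that p53 lowers through p21 and the DREAM repressor complex were read beside Cdkn1a. Of the 16, 5 fell in the anterior mutant pieces and 0 rose (all genes 10.2% and 13.3%), and 0 passed in limma's posterior test (all genes 2.93% and 8.56%). In that posterior test 2 of the 16 were lower at an unadjusted p below 0.05 (all genes 9.39%). Voom called 3 lower in anterior pieces (all genes 9.55%) and 1 lower in posterior pieces (all genes 4.78%). The anterior differences were small: -0.35 for the mitotic kinase gene Plk1, -0.34 for Aurka, another mitotic kinase gene, and -0.35 for Cdc20, an activator of the anaphase-promoting complex. With quantile normalization the 3 calls ended, at -0.236 for Plk1 (adjusted p = 0.0775), -0.205 for Aurka (0.0531) and -0.161 for Cdc20 (0.147), as they did with no filter on low values (0.0596, 0.0689 and 0.0992 in that order). Each of these 3 calls ended without wild-type anterior 153 (adjusted p 0.162 to 0.178), without wild-type anterior 156 (0.147 to 0.193) and without mutant anterior 159 (0.14 to 0.184). Without mutant anterior 163 the calls of Aurka (0.0653) and Cdc20 (0.0602) ended, and that of Cdc20 also without wild-type posterior 153 (0.0592) or 156 (0.0588). The median difference of the 16 was -0.15 in anterior pieces (all genes 0.02) and -0.11 in posterior pieces (all genes 0.05).

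Among 18 genes of the mitochondrial death machinery that Bax belongs to, 3 rose and 2 fell in anterior pieces (all genes 13.3% and 10.2%), and 1 rose in posterior pieces (all genes 8.56%). Bak1, which encodes the partner of Bax in pore formation, rose in both regions. It had 88.3 and 96.7 TPM in mutant against 68.9 and 71.5 TPM in wild-type anterior pieces (0.39 ± 0.09, limma adjusted p = 0.015), and 90.1 and 93.4 TPM in mutant against 69.7 and 67.0 TPM in wild-type posterior pieces (0.42 ± 0.09, adjusted p = 0.0212). The initiator caspase gene Casp9 rose by 0.44 ± 0.11 in anterior pieces (adjusted p = 0.0192) while Casp8, the caspase of death receptors, fell by 0.50 ± 0.12 there (adjusted p = 0.0199). The anterior call of Bak1 ended without mutant anterior 163 (adjusted p = 0.0942), wild-type anterior 153 (0.132) or 156 (0.0864), and its posterior call without mutant posterior 163 or any one of the 4 wild-type libraries (0.0521 to 0.0909) and with only the 2 groups fitted (0.0888). The calls of Casp9 and Casp8 ended without any one of the 4 anterior libraries, with adjusted p from 0.0526 to 0.172 for Casp9 and from 0.0593 to 0.116 for Casp8. The medians of the 18 genes were -0.07 in anterior pieces and -0.04 in posterior pieces.

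**Figure D5:**
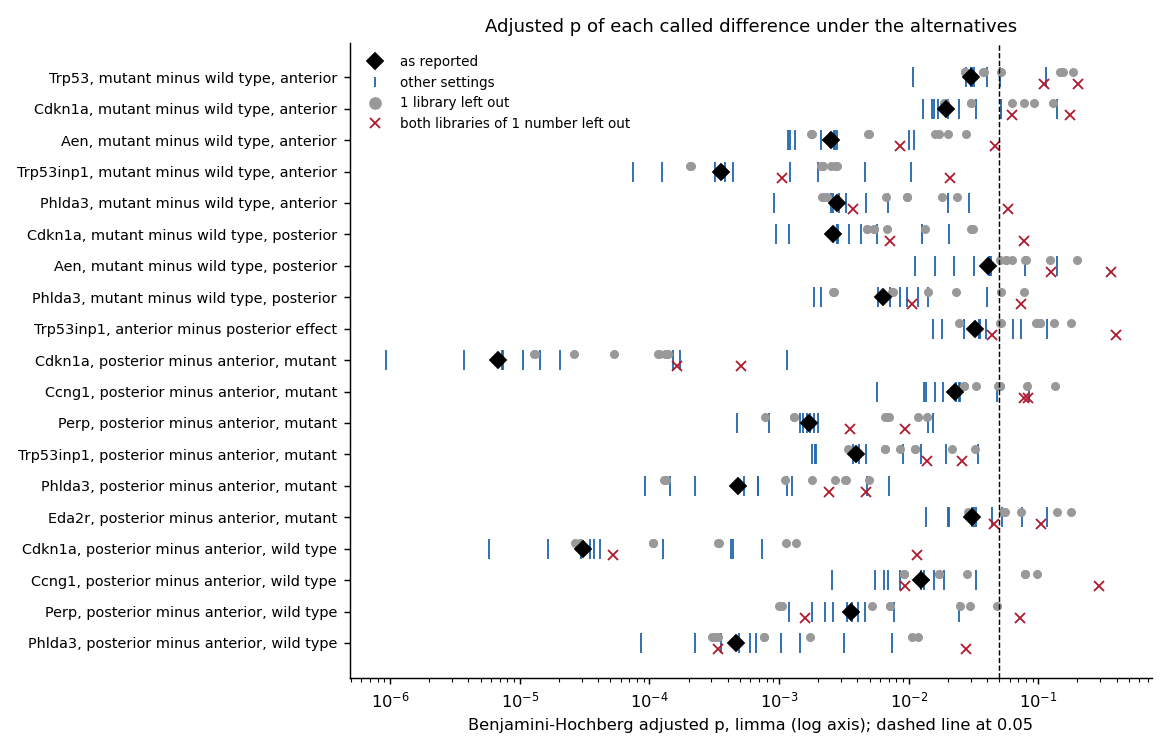
Benjamini-Hochberg adjusted p from limma (x axis, log scale) of each member difference called, as reported and under the other settings; the dashed line is the threshold of 0.05. The anterior Aen, Trp53inp1 and Phlda3 differences, the posterior Cdkn1a difference and the region differences of Cdkn1a, Perp and Phlda3 stay left of the line in every fit that leaves out 1 library, while the posterior Aen difference passes it in each of them. Without both libraries numbered 153 the anterior Phlda3, posterior Cdkn1a and wild-type Perp differences lie right of the line.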

How the data were processed

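The authors deposited 1 table of TPM values (reads corrected for gene length and scaled to one total) for the 8 poly-A libraries. Per the labels' protocols, the library kit keeps no strand information. CASAVA 1.8.2, STAR and build mm10 are named in the submitters' processing notes. The sources used here do not say which annotation or counter was used. Symbols and coordinates came from GENCODE M21. TPM times exon length gave whole reads (within 0.01) for 98.8% to 98.89% of values above 0, and these reads gave the depth per library and served the voom alternative. Because TPM is relative, a class that takes a larger share lowers all other values of that library.

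Genes with at least 1 TPM in at least 2 libraries (16699) were fitted as log2(TPM + 1) with limma 3.58.1 in R 4.3.3, using 4 group means, a mean-dependent spread, 4 residual and 4.68 prior degrees of freedom. The 5 two-sided contrasts were adjusted by Benjamini-Hochberg over all 16699 genes, with a threshold of 0.05. Before use the fit was tested on simulated data. Those data had the same added spread for all genes and no differences of sex or cell type, so such differences were not covered. The members, the other gene lists and the tests were chosen with earlier results of these data known. Genes outside the members were named by rule: the called genes with the smallest p, up to 6 of the other p53 targets and up to 3 of each further list per genotype effect; the low ribosomal genes, Mdm4, Cdkn2a and Trp73 were added after their values were seen. Alternatives changed the pseudocount, filter, scaling, libraries or block, 1 at a time. The check of the anterior pieces by their own markers is not reported here.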

Additional observations from a re-analysis of the deposited data

Results flagged for a closer look

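Trp53inp1 was singled out because its genotype effect differed between the regions by a test of the difference itself. The effect was 1.49 ± 0.14 in anterior and 0.28 ± 0.14 in posterior pieces on the log2(TPM + 1) scale, so that they lay 1.21 ± 0.20 apart (adjusted p = 0.0326 by limma with Benjamini-Hochberg). The level was 28.0 and 23.0 TPM in mutant anterior against 8.51 and 8.35 TPM in wild-type anterior libraries. With 2 libraries in a group, no group was large enough to be searched for a library far from the others.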

How the results depend on the processing

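Of 1368 values of single genes recomputed under the alternatives, 1154 kept their direction and their side of the threshold, 45 changed sign, 165 kept their direction but no longer passed, and 4 passed newly. The 45 sign changes were in 15 differences of members that passed in neither setting (at most 0.135 in size as reported and 0.19 after, adjusted p at least 0.527), and no called difference reversed. For the difference between regions, where Trp53inp1 was the call, the number of members called was 0, in place of 1, with no filter on low values, with median-of-ratios scaling, with quantile normalization and without both libraries numbered 153, and it was 0 to 1 when 1 library was left out. In anterior pieces the members called were 3 with quantile normalization, 3 without both libraries numbered 159, 2 without both numbered 153, and 3 to 5 with 1 library left out. In posterior pieces they were 0 without both numbered 153 and 1 to 2 with 1 library left out. For the region effect in wild type they were 2 without both numbered 153. Of the other p53 targets, 3 were called in posterior pieces with no filter and 2 when only the 2 groups compared were fitted. Without both libraries numbered 153 they were 3 in anterior and 1 in posterior pieces. With 1 library left out they were 6 to 16 in anterior and 1 to 8 in posterior pieces. Leaving out both libraries of a number leaves lone libraries that are assumed to vary like the others; these settings and voom were chosen after seeing the data, and the cause of each change was not tested.

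Over all genes, 954 were called in posterior pieces with no filter and 934 with only the 2 groups, in place of 1919. In that test 74.5% of calls were higher, against 55.2% with median-of-ratios scaling and 53.9% with quantile normalization. Without both libraries numbered 153 the calls were 652 in anterior pieces (in place of 3937), 180 in posterior pieces, 0 between regions (in place of 169, and 55 with no filter), 1708 for the region effect in the mutant (in place of 2690, and 1593 with only the 2 groups) and 573 in wild type (in place of 2422). With 1 library left out they were 1545 to 4563 in anterior pieces, 383 to 1832 in posterior pieces, 20 to 209 between regions, 1732 to 2770 for the region effect in the mutant and 1182 to 2880 in wild type. With the random block 290 were called between regions.

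Libraries with the same number in posterior and anterior pieces share only that number in the labels. The deviations of the anterior and the posterior library of 1 number from their group means correlated at 0.136 for 159 and for 163. For 153 and for 156 the correlation was 0.0216. The numbers of 1 genotype share a value because the deviations of 2 libraries in a group mirror each other. With the replicate block as a fixed term, 1 member was called between regions, 5 in the mutant and 4 in wild type for the region effect. As a random term (correlation 0.149) the block gave 1, 6 and 5 members. With the fixed block Eda2r in the mutant no longer passed (limma adjusted p = 0.0523), with the random block Eda2r in wild type passed (0.046), and no other member call changed.

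With 2 libraries in each group the fit borrows its spread from all genes. Each member's values rested on at least 180 reads. Fas in anterior libraries, at most 0.244 TPM, lay near the level of 3 reads in a gene of 1 kb (0.2 to 0.403 TPM).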
